A study of Mus musculus with 21 samples.

Results

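Oxidative phosphorylation subunits are the proteins that build the respiratory chain and the ATP synthase of the mitochondrial inner membrane. Their messenger RNAs were followed in mouse embryonic stem cells (ESCs) through early differentiation with or without retinoic acid (RA), and after 24 h of RA in ESCs lacking Cyp26a1, an enzyme that breaks RA down. Members were chosen by gene name alone, as the mt- genes for Nd, Co, Cytb and Atp subunits and the nuclear Nduf, Sdh, Uqcr, Cox4 to Cox8 and Atp5 genes, without pseudogenes and assembly factors. This gave 98 of 32285 genes in the time course tables, 85 of them nuclear and 13 encoded by mitochondrial DNA. It gave 87 of 25239 genes in the tables of the Cyp26a1 set, all of them nuclear. Of these, 84 nuclear and 13 mitochondrial subunits of the time course, and 84 of the Cyp26a1 set, reached 1 TPM (a level scaled for transcript length and library size) in at least 3 libraries and were tested. Cox8b, at 0 to 0.725 TPM in the time course, did not reach that level in either set, and Cox6a2 and Ndufa11b, listed at 0 in all 6 libraries, did not reach it in the Cyp26a1 set.

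The time course had 5 groups of 3 poly(A) RNA libraries. ESC_0h was the starting culture, kept in serum with LIF and the inhibitors PD0325901 and CHIR99021 (2i). For noRA_12h and noRA_24h the treatment text names withdrawal of LIF and 2i for 12 h or 24 h, and for RA_12h and RA_24h it names addition of 2 µM RA for the same times. Whether the RA cultures also lost LIF and 2i is not stated. The Cyp26a1 set had 3 Cyp26a1_WT (wild type) and 3 Cyp26a1_KO (knockout) libraries, and all 6 came from ESCs given RA (2 µM) for 24 h. Neither a clone nor a parent line is named, so it cannot be told whether the knockout is 1 clone. Cyp26a1 stood at 585, 606 and 592 TPM in the wild type libraries and at 4.62, 4.03 and 4.93 TPM in the knockout libraries. All 6 ESC markers examined were at 1 TPM or more in all 21 libraries.

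Complex I passes electrons from NADH to ubiquinone, and complex II (succinate dehydrogenase) passes them from succinate. Complex III hands them to cytochrome c and complex IV (cytochrome c oxidase) to oxygen, and ATP synthase uses the resulting proton gradient to make ATP. Some core subunits of complexes I, III and IV and a part of ATP synthase are encoded in mitochondrial DNA. Other core subunits of complex I are nuclear, and complex II is wholly nuclear. Mitochondrial DNA is transcribed as long polycistronic RNAs. Several small subunits of complex IV exist as alternative isoforms with tissue-specific or hypoxia-linked use. Naive mouse ESCs respire actively, and the primed state that follows is known to rely more on glycolysis.

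The nuclear subunits were among the abundant messages of these cells. Their summed level made up 3.49, 3.51 and 3.30 percent of all TPM in ESC_0h libraries 1, 2 and 3. In ESC_0h, Atp5b, the catalytic beta subunit of ATP synthase, stood at 3429, 3232 and 3156 TPM. Cox4i1, the common isoform of the largest nuclear subunit of complex IV, stood at 1699.7, 1654 and 1529 TPM, and the ATP synthase alpha subunit gene Atp5a1 at 1676, 1606 and 1536 TPM. The core complex I gene Ndufs1 was an order lower, at 94.2, 114 and 118 TPM. The lowest members were Cox8c, a testis-type isoform, at 0.44, 0 and 0 TPM and Cox7b2, another one, at 0.37, 0.32 and 0 TPM. Atp5b thus lay above Cox4i1 and Atp5a1 in each ESC_0h library, and the ranges of those last genes overlapped.

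Libraries of 1 group did not always sit together. Aligned sequence was estimated from coverage at 2.96 to 3.91 gigabases a library for the time course, against 2.72 to 3.24 for the knockout and its wild type. In each library genes of at most 45.5% GC were compared with genes of at least 54.9% GC in the time course (the outer quartiles; quartiles of its own for the Cyp26a1 set), as the difference of their median deviations from the set mean (log2). This difference was -0.23, 0.11 and 0.17 in ESC_0h, 0.36, -0.67 and -0.15 in noRA_12h and -0.46, -0.47 and -0.39 in RA_12h. It was 0.55, 0.52 and 0.68 in noRA_24h and -0.21, 0.75 and -0.42 in RA_24h, so RA_24h library 2 stood with the noRA_24h libraries. In the Cyp26a1 set it was -0.11, -0.04 and 0.14 in the wild type and -0.28, -0.21 and 0.46 in the knockout, where library 3 stood apart. The plot of summed level and GC balance sets this difference beside the summed level of the nuclear subunits. That level, given above for ESC_0h, was 2.95, 3.27 and 3.13 percent of all TPM in noRA_12h, 3.26, 3.30 and 3.22 in RA_12h, 2.86, 2.83 and 2.87 in noRA_24h and 3.15, 2.87 and 3.32 in RA_24h. The part of this balance in the results was not tested beyond a fit corrected for GC content and length, whose counts are given for each comparison.

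**Figure D1:**
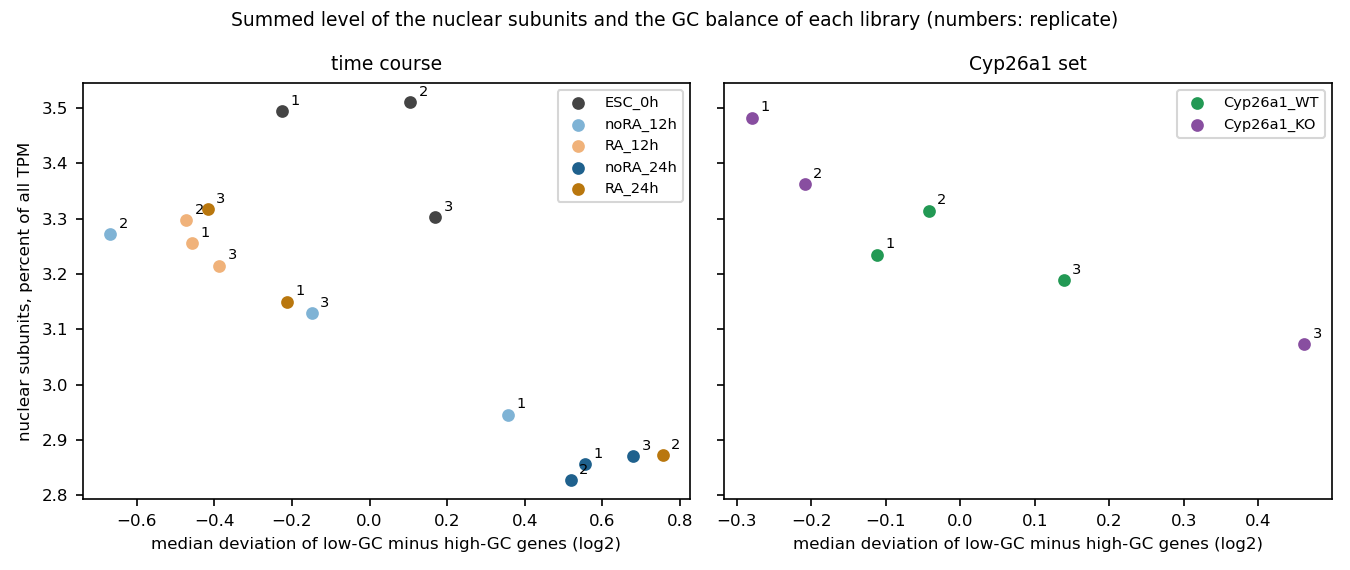
Each point is 1 library: the x axis gives the median deviation of low-GC minus high-GC genes (log2), the y axis the summed TPM of the nuclear subunits as a percent of all TPM, with groups by colour and replicates numbered. RA_24h library 2 lies at 0.75 with the noRA_24h libraries (0.52 to 0.68), and Cyp26a1_KO library 3 lies at 0.46, away from the other two.

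At 12 h without LIF and 2i, 67 of 84 nuclear subunits lay below their ESC_0h mean on the log scale. Of all 13948 genes tested, 7415 did so. By limma with Benjamini-Hochberg adjustment over all genes, 29 of the 84 fell and 3 rose. Over all 13948 genes tested, 20.4% were called lower and 22% higher. The median difference of log2(TPM + 1) was -0.16 for the nuclear subunits and -0.04 for all genes. The falls took in 1 of 7 core and 10 of 29 accessory subunits of complex I and 1 of 4 subunits of complex II. They also took in 3 of 8 of complex III, 9 of 19 of complex IV and 5 of 17 of ATP synthase. For the core subunits of complex I the share was not above the 20.4% of all genes. Without noRA_12h library 1 the count of lower subunits was 18, and without ESC_0h library 2 it was 19. The count of higher subunits was 5 without ESC_0h library 2 and 1 without ESC_0h library 3 or noRA_12h library 3. The correction for GC content and length gave 39 lower and 3 higher, with 3537 lower and 3575 higher among all 13948 genes. Median-of-ratios scaling gave 12 lower and 2 higher, with 2484 lower and 3120 higher among all genes. With that scaling the share of subunits called lower was not above that of all genes. Primitive endoderm markers summed to 10.0 to 11.3 TPM in ESC_0h and 66.5 to 69.5 TPM in noRA_12h, with 2 of 6 called higher and 1 lower. Of these 6, 2 reached 1 TPM in each ESC_0h library and only 1 in each noRA_12h library, so that sum is mostly 1 gene. Fibroblast markers summed to 6.42 to 8.20 and 11.4 to 14.3 TPM, with 1 of 3 tested higher and 1 lower. Of 6 fibroblast markers, 2 to 3 reached 1 TPM in ESC_0h libraries and 1 to 2 in noRA_12h libraries. The part of either list in the subunit values was not tested.

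Outside the isoform families described further on, the largest falls at 12 h were those of Atp5d, Ndufv3 and Ndufa13. Atp5d, the delta subunit in the central stalk of ATP synthase, stood at 449, 390.4 and 380.0 TPM in ESC_0h and at 233, 302 and 277 TPM in noRA_12h. The groups did not overlap, as in 49% of all genes tested, and the difference was -0.59 ± 0.13 (SE), adjusted p = 0.00268. Ndufv3, an accessory subunit of the NADH-oxidising arm of complex I, stood at 246, 250.3 and 243 TPM in ESC_0h and 152, 183 and 169 TPM in noRA_12h. It fell without overlap, with a difference of -0.55 ± 0.073 (SE), adjusted p = 3.79e-05. Ndufa13 (also known as Grim19), an accessory subunit of complex I, stood at 145, 142 and 141 and 101, 117 and 97.9 TPM in the same groups. Its difference was -0.44 ± 0.084 (SE), adjusted p = 0.000913, and these 3 calls held in each fit that left out 1 library of the pair. Atp5d overlaps Cbarp on the opposite strand. Cbarp stood at 16.4, 12.0 and 13.7 TPM in ESC_0h and 20.96, 20.2 and 18.7 TPM in noRA_12h, opposite in direction to Atp5d. Ndufa13 overlaps Yjefn3 and Tssk6, and strand use in counting is not stated.

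The 3 subunits called higher at 12 h were Ndufa8, Ndufs3 and Cox7b2. Ndufa8, an accessory subunit that complex I needs in its membrane arm, stood at 155, 158 and 152 TPM in ESC_0h and 173, 224 and 210.2 TPM in noRA_12h (0.38 ± 0.091 (SE), adjusted p = 0.00441). Ndufs3, a core subunit of the peripheral arm, stood at 186, 184 and 173 and 196, 218 and 212 TPM (0.20 ± 0.063 (SE), adjusted p = 0.0191). The Ndufs3 call was lost without ESC_0h library 3 (adjusted p = 0.0789), noRA_12h library 2 (0.0687) or noRA_12h library 3 (0.0626), and with median-of-ratios scaling (0.0607), and the difference was 0.12 with the GC content and length correction. In noRA_24h Ndufa8 stood at 165, 142 and 151 TPM, a range that overlaps that of ESC_0h.

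By 24 h without LIF and 2i 70 of 84 nuclear subunits lay below their ESC_0h mean on the log scale. Of all 13948 genes tested, 6655 did so. Again by limma, 49 of the 84 fell and 3 rose (Cox7b2, Ndufa1 and Cox7c). Over all genes tested, 26.5% were called lower and 25.4% higher, 51.9% in either direction. The median difference was -0.25 for the nuclear subunits and 0.03 for all genes. The fall took in 4 of 7 core and 18 of 29 accessory subunits of complex I, 3 of 4 subunits of complex II, 3 of 8 of complex III, 11 of 19 of complex IV and 10 of 17 of ATP synthase. Of the subunits that fell by 24 h, 26 had also fallen at 12 h. The count of higher subunits was 5 without ESC_0h library 2, and 1 with the correction for GC content and length, where Cox7c stood at -0.30 and Ndufa1 at -0.078. The Cox7c call was also lost without ESC_0h library 1 (adjusted p = 0.0539) or noRA_24h library 3 (0.0523), with FPKM values (0.0857) and with median-of-ratios scaling (0.0738). The counts of lower subunits were 41 to 49 when 1 library was left out, 59 with the correction for GC content and length, and 35 with median-of-ratios scaling. Among all 13948 genes, 4041 were lower with that correction and 3358 with that scaling. In noRA_24h primitive endoderm markers summed to 39.2 to 45.7 TPM and fibroblast markers to 13.8 to 16.6 TPM. Only 1 to 2 of the 6 endoderm markers and 1 of the 6 fibroblast markers reached 1 TPM in a noRA_24h library. The counts of called markers were the same as at 12 h, and the part of these markers in the subunit values was not tested.

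The summed levels were lower as well. The 19 nuclear subunits of complex IV added up to 8717, 8693 and 8195 TPM in ESC_0h libraries 1, 2 and 3 and to 6931, 6716 and 6932 TPM in noRA_24h. Those of ATP synthase added up to 14210, 14132 and 13315 TPM in ESC_0h and 11782, 11714 and 11720 TPM in noRA_24h. The accessory subunits of complex I summed to 6516, 6685 and 6202 and 5405, 5307 and 5420 TPM. In these 3 sums the groups did not overlap, and no test was made on a sum over members. Each sum is a share of all messages, so it also depends on the levels of the other messages. Bulk RNA cannot tell fewer cells carrying a message from less of it per cell. Which of these lay behind the lower sums was not tested.

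Atp5d stood at 251, 226 and 233 TPM in noRA_24h, below its ESC_0h values given above (-0.77 ± 0.13 (SE), adjusted p = 0.000259). Ndufa13 stood at 96.5, 90.7 and 89.0 TPM, likewise below (-0.63 ± 0.084 (SE), adjusted p = 3.47e-05). Both are among the 26 subunits that were lower at each time.

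Cox6a1, the common isoform of a small regulatory subunit of complex IV, stood at 992, 910.0 and 891 TPM in ESC_0h and 619, 576 and 594 TPM in noRA_24h. The noRA_24h libraries were all lower, with a difference of -0.64 ± 0.087 (SE), adjusted p = 3.85e-05. Cox6b1, a subunit on the intermembrane side that joins the monomers of the complex IV dimer, stood at 786, 819 and 727 and 515, 495 and 531 TPM (-0.60 ± 0.084 (SE), adjusted p = 5.32e-05). Ndufb4, a complex I accessory subunit, stood at 202, 209 and 194 and 130.4, 135 and 133 TPM (-0.59 ± 0.063 (SE), adjusted p = 4.24e-06). Uqcrc1, a core structural subunit of complex III, stood at 781, 720.0 and 708 and 495, 483 and 489 TPM (-0.59 ± 0.087 (SE), adjusted p = 8.11e-05). Each of these 4 was lower in all 3 noRA_24h libraries than in any ESC_0h library, a separation seen in 65.3% of all genes tested, and each call held when any 1 library was left out.

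**Figure D2:**
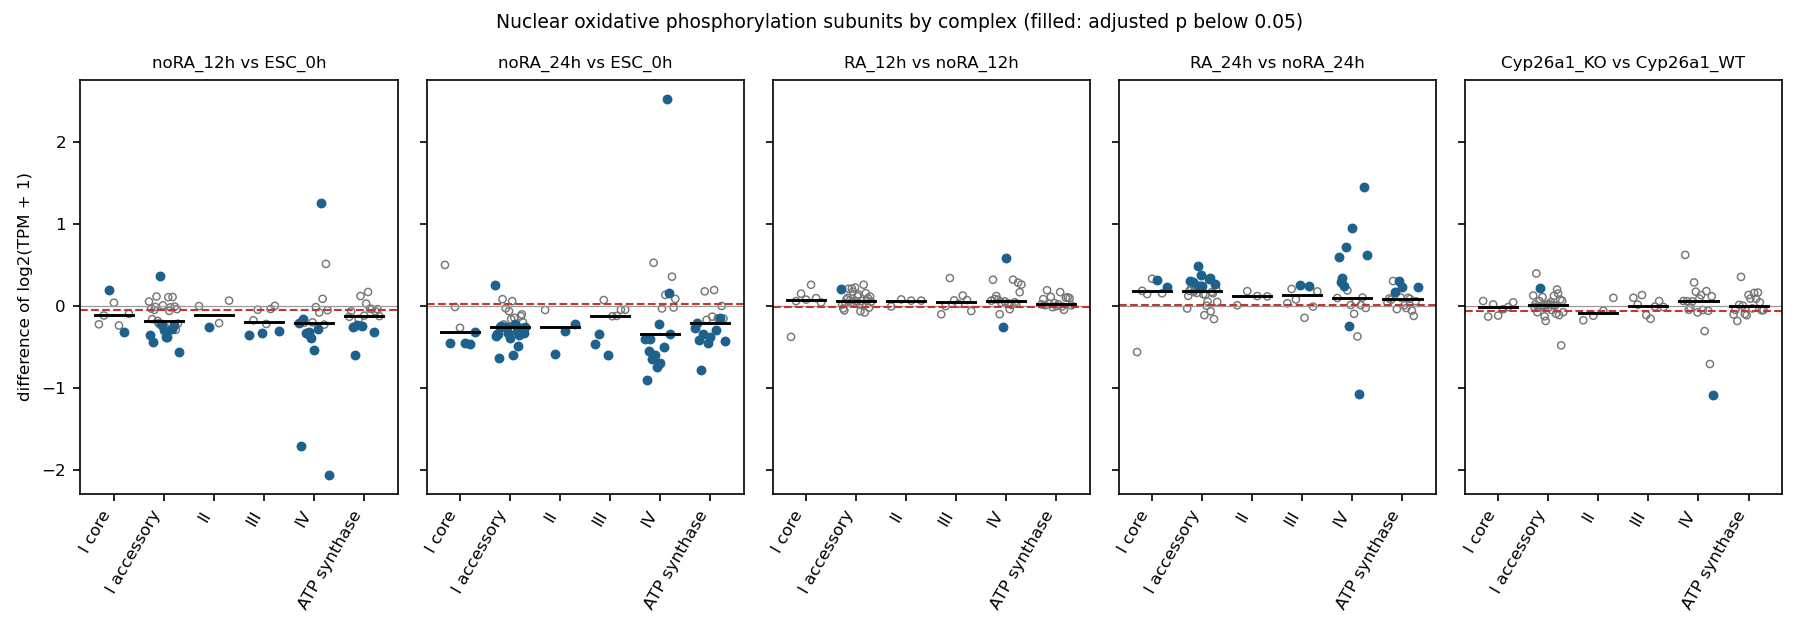
Each point is 1 nuclear subunit, with the difference of log2(TPM + 1) on the y axis and the complexes on the x axis, in 5 comparisons. Filled points passed an adjusted p of 0.05, black bars are medians of a complex and the red dashed line is the median of all genes tested (-0.04, 0.03, -0.01, 0.02 and -0.05 from left to right).

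For succinate dehydrogenase, which also serves the tricarboxylic acid cycle, the 4 subunits did not move alike. The flavoprotein subunit Sdha stood at 219, 233 and 228 TPM in ESC_0h and 209, 229 and 222 TPM in noRA_24h, ranges that overlap (-0.04 ± 0.061 (SE), adjusted p = 0.583). The iron-sulfur subunit Sdhb stood at 293, 300.3 and 282 and 196, 189.7 and 199.7 TPM without overlap and fell (-0.58 ± 0.082 (SE), adjusted p = 5.75e-05). The membrane anchors Sdhc and Sdhd differed by -0.30, adjusted p = 0.00764 and by -0.21, adjusted p = 0.0439. The Sdhd call was lost in each of the 6 fits that left out 1 library, with adjusted p = 0.0673 to 0.125, and under scaling by median ratios (adjusted p = 0.149), and its difference was -0.41 with the GC content and length correction. The difference between Sdhb and Sdha was not tested. In RA_24h against noRA_24h none of the 4 passed in limma, with 236, 192 and 243 TPM for Sdhb. At an unadjusted p below 0.05 there was 1 of the 4, beside 6253 of all 13948 genes.

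The promoters of 5 subunits are shown: 4 fell by 24 h and hold letters bound by factors known from respiratory genes, and the fifth, Cox7a1, fell without LIF and 2i and was higher with RA. Windows of 250 bases before to 50 after the start site were available from RefSeq (GRCm38.p6) for 68 of the 84 nuclear subunits. They were searched on both strands for GCGCA directly followed by TGCGC (the NRF1 site, which reads the same on both strands), CCGGAAG (the ETS core bound by GABP), TCAAGGTCA (ERR) and AAGATGGCG (YY1). NRF1 letters were found in 6.85% of the 73 windows of nuclear subunits and in 0.971% of all 32851 windows. The shares were 23.3% and 8.86% for the ETS core, 2.74% and 0.423% for ERR, and 9.59% and 1.403% for YY1. Among the 41 genes with a window that fell in noRA_24h, 4 held the NRF1 letters and 11 the ETS core. No motif overlaps another in the printed stretches, which end at the base before the start site and carry NRF1 and ETS letters in capitals. Cox6a1 (chr5:115348959-115349128 on the - strand) holds the NRF1 letters from base -162 and the ETS core, in antisense, from base -16. Atp5g2 (chr15:102671048-102671147 on the - strand) and Ndufa11 (chr17:56717662-56717761 on the + strand) hold the NRF1 letters from bases -42 and -60, and Cox6b1 (chr7:30626115-30626214 on the - strand) the ETS core, in antisense, from base -28. The stretch of Cox7a1 (chr7:30184071-30184170 on the + strand) held none of the 4 motifs.
Cox6a1: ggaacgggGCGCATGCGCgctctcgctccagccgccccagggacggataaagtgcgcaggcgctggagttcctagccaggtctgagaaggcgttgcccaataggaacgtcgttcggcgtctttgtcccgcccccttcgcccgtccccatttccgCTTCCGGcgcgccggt
Atp5g2: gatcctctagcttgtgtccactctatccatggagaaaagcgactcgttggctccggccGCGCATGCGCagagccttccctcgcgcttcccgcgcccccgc
Ndufa11: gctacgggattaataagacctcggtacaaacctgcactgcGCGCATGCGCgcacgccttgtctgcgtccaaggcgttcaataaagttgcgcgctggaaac
Cox6b1: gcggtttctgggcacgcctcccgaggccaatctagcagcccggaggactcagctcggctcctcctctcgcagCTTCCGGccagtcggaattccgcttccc
Cox7a1: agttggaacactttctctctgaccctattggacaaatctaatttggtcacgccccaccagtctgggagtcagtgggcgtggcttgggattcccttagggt

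Atp5g2, one of 3 genes for the identical mature c subunit of the ATP synthase ring, stood at 1025, 894 and 964 TPM in ESC_0h and 711, 694 and 712 TPM in noRA_24h (-0.44 ± 0.087 (SE), adjusted p = 0.000787). Of the other two, Atp5g3 also fell (-0.37, adjusted p = 0.000195, and -0.60 with the GC content and length correction), and Atp5g1 stood at 487, 434 and 459.9 and 406, 389 and 436 TPM (-0.16, adjusted p = 0.111). Ndufa11, a membrane-arm subunit of complex I whose promoter stands above, stood at 330.3, 309 and 305 and 232, 253 and 266 TPM (-0.33 ± 0.092 (SE), adjusted p = 0.00817). Ndufa11 overlaps Vmac on the opposite strand.

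With 12 h of RA, few nuclear subunits differed from the libraries without RA. Cox7a1 and Ndufa1 rose and Cox6b2 fell, 3 of 84, against 10.2% of all genes called higher and 7.19% called lower. The median difference was 0.07 for the nuclear subunits and -0.01 for all genes, and 69 of 84 lay above 0, beside 6743 of all 13948 genes. At an unadjusted p below 0.05, 13 were higher and 1 was lower, beside 4083 of all 13948 genes in either direction. The noRA_12h libraries spread widely in GC balance, and without noRA_12h library 2 the count of higher subunits was 6. Without noRA_12h library 1, RA_12h library 2 or RA_12h library 3 it was 1. The correction for GC content and length gave 3 higher and 9 lower, against 1625 higher and 2060 lower over all genes (1428 and 1003 without it), and FPKM values gave 4 higher and none lower. Ndufa1, a small accessory subunit needed for complex I assembly, stood at 129, 128 and 132 TPM in noRA_12h and 137, 159.6 and 155 TPM in RA_12h (0.22 ± 0.066 (SE), adjusted p = 0.0378). Its call was lost in 5 of the 6 fits that left out 1 library, with adjusted p = 0.0687 to 0.159, and was kept only without RA_12h library 1. It was also lost with median-of-ratios scaling (adjusted p = 0.0711).

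With 24 h of RA, 26 of the 84 nuclear subunits rose and 2 fell against noRA_24h. Over all genes tested, 22.8% were called higher and 12.5% lower, 35.2% in either direction. The median difference was 0.16 for the nuclear subunits and 0.02 for all genes, and 68 of 84 lay above 0, beside 7220 of all 13948 genes. The members that rose were 12 of 36 nuclear subunits of complex I, 2 of 8 of complex III, 8 of 19 of complex IV and 4 of 17 of ATP synthase. Of the 49 subunits that fell by 24 h without RA, 43 had an RA_24h mean between the means of noRA_24h and ESC_0h. In 3 the RA_24h mean was at or above that of ESC_0h, and in 3 at or below that of noRA_24h. Both comparisons use the noRA_24h libraries, so these counts are not independent of each other. The 49 were picked as low in noRA_24h against ESC_0h, a choice that by itself favours an RA_24h mean between the 2. The like count over all genes was not made, so no effect of RA is read from these counts. Primitive endoderm markers summed to 39.2 to 45.7 TPM in noRA_24h and 171 to 203 TPM in RA_24h, with 6 of 6 called higher. Trophoblast markers summed to 45.4 to 49.0 and 80.6 to 104 TPM, with 4 of 5 tested higher, and the part of either list in the subunit values was not tested.

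These counts moved with single libraries. Without RA_24h library 2, 51 nuclear subunits were called higher and 4 lower, the median difference was 0.23, and 28.3% of all genes were called higher and 25.7% lower. Without RA_24h library 3 the count of higher subunits was 13, and without noRA_24h library 3 it was 17. The count of lower subunits was 1 without RA_24h library 3 or any 1 noRA_24h library. The correction for GC content and length gave 14 higher and 6 lower among the subunits and 2550 higher and 3000 lower among all genes, in place of 3178 and 1737. Median-of-ratios scaling gave 11 higher and 3 lower among the subunits and 2612 higher and 1890 lower among all genes. With that correction or that scaling, the share of subunits called higher was not above that of all genes. Across the 84 members, GC content and the difference had a Pearson r of -0.49 for noRA_24h against ESC_0h and 0.39 for RA_24h against noRA_24h, as a description across genes that share libraries.

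Ndufa8 had the largest rise among the complex I subunits called with RA at 24 h. It stood at 165, 142 and 151 TPM in noRA_24h and 215, 198 and 233 TPM in RA_24h without overlap, as in 43.6% of all genes tested (0.49 ± 0.091 (SE), adjusted p = 0.000923). Ndufb10, an accessory subunit of the membrane arm, stood at 188, 180.2 and 183 and 235, 222 and 261 TPM, again without overlap (0.38 ± 0.08 (SE), adjusted p = 0.00249). Cox5b, a nuclear subunit on the matrix side of complex IV, stood at 333, 321 and 335 and 432, 367 and 469.8 TPM, with the RA libraries all higher (0.35 ± 0.08 (SE), adjusted p = 0.00421). Atp5g1 stood at 406, 389 and 436 and 516, 451 and 563 TPM (0.31 ± 0.082 (SE), adjusted p = 0.0104), a call lost without RA_24h library 3 (adjusted p = 0.0514), with the GC content and length correction (adjusted p = 0.0607) and with median-of-ratios scaling (adjusted p = 0.056). With the GC content and length correction the differences of Ndufa8 and Ndufb10 were 0.30 and 0.19. In all 4 genes RA_24h library 2 was the lowest of the 3 RA libraries. Cox6a1 stood at 619, 576 and 594 TPM in noRA_24h and 740.2, 621 and 766 TPM in RA_24h (0.24 ± 0.087 (SE), adjusted p = 0.0444), with library 2 near the noRA_24h values. The Cox6a1 call was lost in 5 of the 6 fits that left out 1 library and under scaling by median ratios (adjusted p = 0.159), and the difference was -0.041 after the correction for GC content and length.

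The RA effect at 24 h was also set against that at 12 h in 1 contrast. No nuclear subunit passed in limma, against 4.17% of all genes called higher and 2.68% called lower. At an unadjusted p below 0.05, 10 subunits were higher and 5 were lower, beside 2799 of all 13948 genes in either direction. The median was 0.09 for the subunits and 0.05 for all genes. Without RA_24h library 2, 7 subunits were called higher, and without noRA_12h library 1, 2 were. With the correction for GC content and length 1 was called higher.

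The largest differences among the nuclear members were in alternative isoforms, which are plotted by library beside their common counterparts. Ndufa4l2 (mm10 chromosome 10, bases 127514967 to 127517154, + strand), a hypoxia-inducible paralog of the complex IV subunit Ndufa4, stood at 103, 90.2 and 92.7 TPM in ESC_0h and 17.3, 27.9 and 22.5 TPM in noRA_12h. It fell without overlap, with a difference of -2.06 ± 0.13 (SE), adjusted p = 2.62e-08. It stood at 27.6, 27.6 and 25.4 TPM in RA_12h (0.27, adjusted p = 0.178), at 104, 102 and 98.4 TPM in noRA_24h, in the range of ESC_0h, and at 156, 149 and 168 TPM in RA_24h. The RA_24h libraries were all above the noRA_24h libraries (0.63 ± 0.13 (SE), adjusted p = 0.00161), and the difference was 0.33 with the GC content and length correction. Ndufa4 itself stood at 498, 584 and 497 TPM in ESC_0h, 503, 489 and 534 TPM in noRA_12h and 506, 522 and 511 TPM in RA_24h, with no call in these comparisons. As a share of the summed TPM of the pair, Ndufa4l2 made up 15.4 ± 1.91% (SD, n = 3) in ESC_0h, 4.25 ± 1.06% in noRA_12h, 16.3 ± 0.478% in noRA_24h and 23.5 ± 1.29% in RA_24h.

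Ndufa4l2 overlaps Shmt2, a mitochondrial serine hydroxymethyltransferase gene, on the opposite strand, and strand use in counting is not stated. Shmt2 stood at 386, 337 and 366 TPM in ESC_0h, 227, 277 and 238 TPM in noRA_12h, 348, 348 and 343 TPM in noRA_24h and 486, 405 and 497 TPM in RA_24h. Its differences were -0.55 at 12 h without RA and 0.41 with RA at 24 h, in the direction of Ndufa4l2 and smaller. The part of Shmt2 reads in the Ndufa4l2 values was not tested.

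Cox4i2 (mm10 chromosome 2, bases 152754173 to 152765037, + strand), the hypoxia-linked isoform of Cox4i1, followed a like course at a lower level. It stood at 14.4, 14.4 and 15.4 TPM in ESC_0h and 4.70, 3.27 and 3.61 TPM in noRA_12h, a difference of -1.71 ± 0.15 (SE), adjusted p = 8.26e-07. It stood at 7.87, 6.92 and 7.63 TPM in noRA_24h, still below each ESC_0h library (-0.90, adjusted p = 0.00021), and at 11.4, 11.9 and 12.1 TPM in RA_24h, above each noRA_24h library (0.60, adjusted p = 0.00693). This RA call was lost with the GC content and length correction (0.39, adjusted p = 0.084). It stayed a small part of the pair throughout, at 0.900 ± 0.0832% (SD, n = 3) of the summed TPM with Cox4i1 in ESC_0h and 0.885 ± 0.0978% in RA_24h. Cox4i1 fell by 24 h without RA (-0.39, adjusted p = 0.00056) and stood at 1282, 1202 and 1229 TPM in noRA_24h and 1352, 1182 and 1465 TPM in RA_24h, ranges that overlap (0.10, adjusted p = 0.296).

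Cox7a1 (mm10 chromosome 7, bases 30184144 to 30186078, + strand), the heart and muscle isoform of a small subunit, was the nuclear subunit called higher with RA at both times. It stood at 51.0, 42.8 and 49.0 TPM in ESC_0h, 34.1, 32.1 and 31.4 TPM in noRA_12h and 48.2, 50.9 and 49.9 TPM in RA_12h. It stood at 27.9, 25.6 and 34.3 TPM in noRA_24h and 61.3, 46.4 and 66.1 TPM in RA_24h. At both times each RA library lay above each library without RA, a separation seen in 36% and 43.6% of all genes tested, with differences of 0.60 ± 0.13 (SE), adjusted p = 0.00504 at 12 h and 0.96 ± 0.13 (SE), adjusted p = 6.71e-05 at 24 h. Against ESC_0h it fell without RA, with differences of -0.53, adjusted p = 0.00414 at 12 h and -0.69, adjusted p = 0.000497 at 24 h. The common isoform Cox7a2 had no call, with 333, 329 and 352 TPM in noRA_24h and 310.2, 316 and 325 TPM in RA_24h. Cox7a1 made up 7.95 ± 0.857% (SD, n = 3) of the pair in noRA_24h and 15.4 ± 2.26% in RA_24h. The 4 muscle or heart markers examined summed to 4.64 to 19.3 TPM in noRA_24h and 10.8 to 14.5 TPM in RA_24h, and none of the 4 passed the test with RA in limma at either time.

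Cox6b2 (mm10 chromosome 7, bases 4751792 to 4753094, - strand), the testis isoform of Cox6b1, fell without RA and was lower still with RA. It stood at 127, 115 and 128 TPM in ESC_0h, 96.4, 92.3 and 92.7 in noRA_12h, 82.0, 73.1 and 81.7 in RA_12h, 74.4, 70.8 and 74.9 in noRA_24h and 59.4, 63.8 and 62.7 in RA_24h. The groups did not overlap in any of the 4 comparisons. The differences without RA were -0.39, adjusted p = 0.000196 at 12 h and -0.74, adjusted p = 3.92e-07 at 24 h. With RA they were -0.25, adjusted p = 0.0129 at 12 h, a call lost without noRA_12h library 1 (adjusted p = 0.0522) or RA_12h library 2 (0.07), and -0.24, adjusted p = 0.00821 at 24 h. With the GC content and length correction these were -0.38 and -0.41. It was thus among the 2 nuclear subunits lower with RA at 24 h, and its partner Cox6b1 stood at 515, 495 and 531 TPM in noRA_24h and 594, 516 and 662 TPM in RA_24h (0.19, adjusted p = 0.0908).

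**Figure D3:**
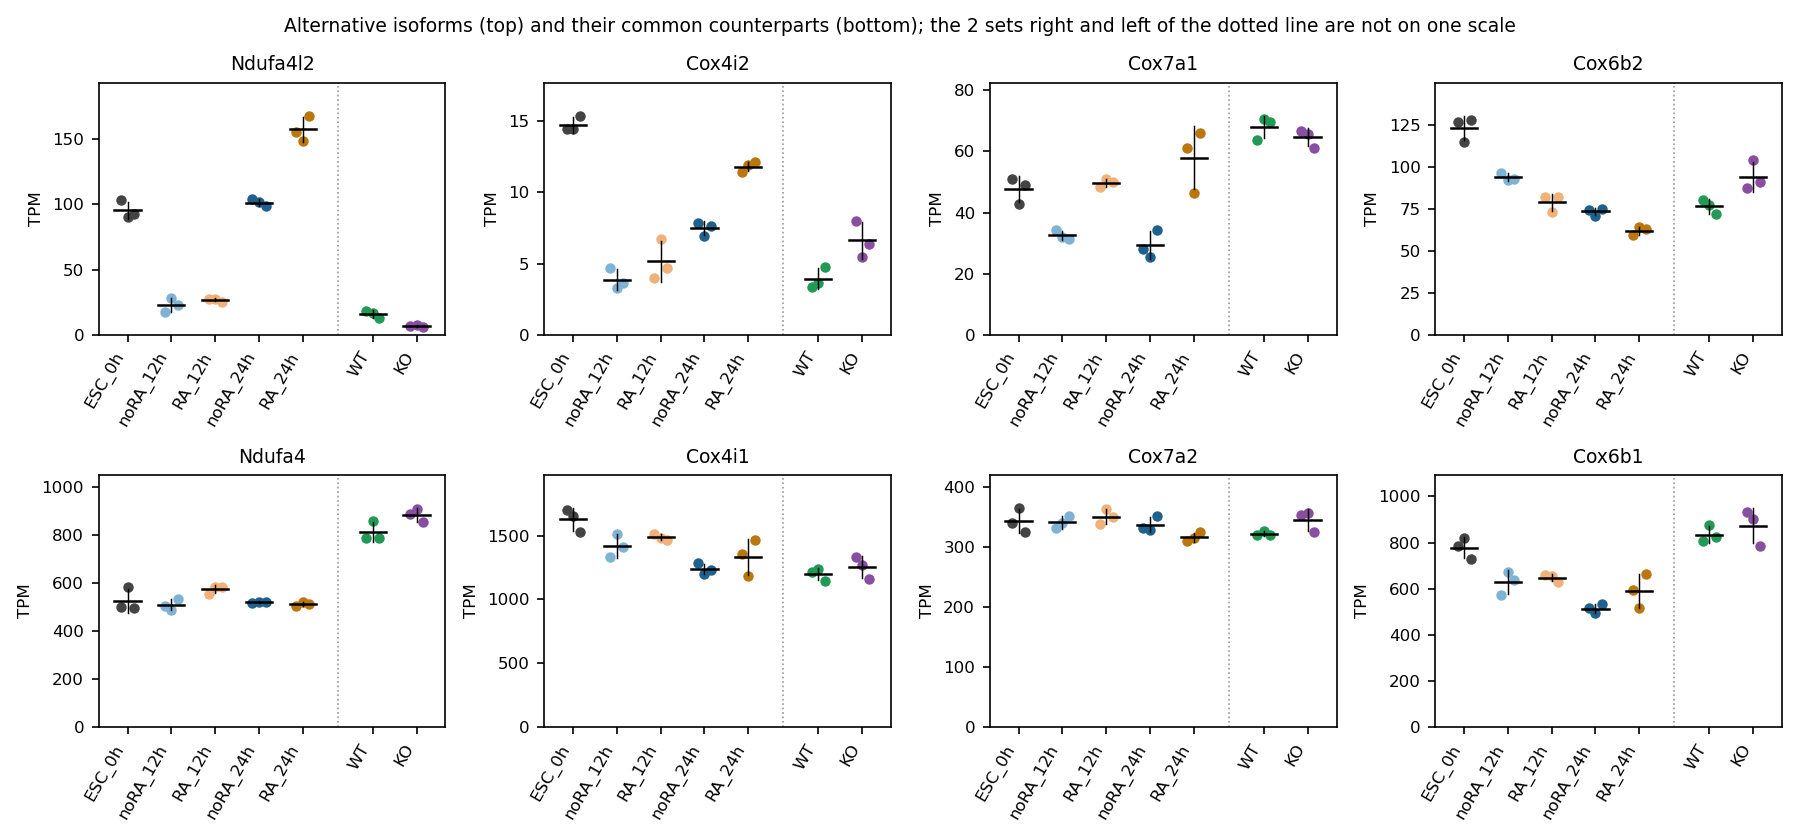
TPM (y axis) of 4 alternative isoforms in the top row and of their common counterparts in the bottom row, by group (x axis), with 1 point per library, the mean as a bar and the SD as a thin line (n = 3). Ndufa4l2 drops to between 17.3 and 27.9 TPM in noRA_12h and reaches 149 to 168 TPM in RA_24h, while Ndufa4 stays between 489 and 584 TPM over the time course.

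Other isoforms were near the detection limit and are given with that in mind. Cox7b2 stood at 0.37, 0.32 and 0 TPM in ESC_0h, 1.10, 2.03 and 2.96 in noRA_12h, 5.24, 6.71 and 6.27 in noRA_24h and 4.35, 3.07 and 0.73 in RA_24h. It rose without RA (1.27, adjusted p = 0.0144 at 12 h and 2.53, adjusted p = 7.7e-05 at 24 h) and fell with RA at 24 h (-1.07, adjusted p = 0.0399). The 12 h call was lost without ESC_0h library 3 (adjusted p = 0.0563) or noRA_12h library 3 (0.0669). The RA call was lost without any 1 of the 3 noRA_24h libraries (0.0649 to 0.106) and without RA_24h library 3 (-0.59, 0.179), and with the GC content and length correction (-0.69, adjusted p = 0.264). Cox8c stood at 0.55, 0.97 and 0 TPM in noRA_24h and 2.05, 6.55 and 1.71 TPM in RA_24h (1.45, adjusted p = 0.00865), with library 2 far above the other two. Cox6a2, the heart and muscle isoform of Cox6a1, stood at 0.64, 1.54 and 1.87 and 2.45, 3.19 and 2.74 TPM (0.73, adjusted p = 0.0287), and its call was lost without noRA_24h library 1, RA_24h library 2 or RA_24h library 3 (0.0534 to 0.131), with the GC content and length correction (adjusted p = 0.0558) and with a pseudocount of 0.1 (0.239).

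The 13 subunits encoded by mitochondrial DNA differed widely between libraries of a group, as the heat map of these genes shows, and few of their calls held without each library. Their summed level was 2.74, 2.83 and 3.52 percent of all TPM in ESC_0h, 3.02, 1.97 and 2.34 in noRA_12h, 2.15, 1.90 and 2.09 in RA_12h, 2.96, 2.83 and 3.22 in noRA_24h and 2.31, 2.83 and 1.98 in RA_24h. Without RA at 12 h, 6 of 13 fell and 1 rose, with 42.5% of all genes called in either direction. The 6 were mt-Nd4, mt-Nd4l, mt-Nd5, mt-Nd6, mt-Co1 and mt-Co2. In 5 of these 6 the groups overlapped, and without ESC_0h library 3, noRA_12h library 2 or noRA_12h library 3 the count of called genes dropped from 7 to 1. The correction for GC content and length gave 7, without mt-Co2 (-0.13, adjusted p = 0.493).

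mt-Nd5, a proton-pumping subunit of complex I, stood at 962, 791 and 1404 TPM in ESC_0h, 814, 416 and 369 in noRA_12h, 259, 245 and 229.7 in RA_12h, 589, 456 and 634 in noRA_24h and 484, 832 and 360.2 in RA_24h. The 3 RA_12h libraries were the lowest of all 15, and noRA_12h library 1 lay with ESC_0h. The difference was -1.03 ± 0.32 (SE), adjusted p = 0.0202 at 12 h without RA and -1.03 ± 0.32 (SE), adjusted p = 0.044 for RA at 12 h. With the GC content and length correction the 12 h difference without RA was -0.67. The RA call was lost without noRA_12h library 1 (-0.68, adjusted p = 0.182) or any of the 3 RA_12h libraries (0.0938 to 0.119). mt-Nd6 is a subunit encoded on the other strand, and its gene end overlaps that of mt-Nd5. It stood at 977, 822 and 1391 TPM in ESC_0h and 842, 432 and 419 TPM in noRA_12h, close to mt-Nd5 in each library. Strand use in counting is not stated, and the part of mt-Nd5 reads in the mt-Nd6 values was not tested.

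mt-Co1, the catalytic subunit of complex IV, stood at 7439, 4309.6 and 4851 TPM in noRA_12h and 3412, 3170.3 and 3178 TPM in RA_12h. The RA libraries were all lower (-0.73 ± 0.18 (SE), adjusted p = 0.0115), and the call held in each fit that left out 1 library. It stood at 6862, 6689.6 and 7103 TPM in noRA_24h and 4359.9, 5891 and 3889 TPM in RA_24h, again all lower (-0.57 ± 0.18 (SE), adjusted p = 0.0236), but that call was lost in 5 of 6 such fits (0.0502 to 0.105) and kept without RA_24h library 2. In all, 4 of 13 fell with RA at 12 h (mt-Co1, mt-Cytb, mt-Nd4l and mt-Nd5) and 3 of 13 at 24 h (mt-Co1, mt-Co2 and mt-Co3). Of all genes, 17.4% and 35.2% were called in either direction at these times, and groups did not overlap in 36% and 43.6%. At 12 h, leaving out 1 library gave 1 to 6 called (6 without noRA_12h library 2, 1 without noRA_12h library 1, RA_12h library 2 or RA_12h library 3, and 2 without RA_12h library 1). At 24 h it gave 6 without RA_24h library 2 and 1 without any other. At 24 h without RA, 2 of 13 fell, mt-Nd5 and mt-Nd6, and neither call was kept without ESC_0h library 3 or noRA_24h library 2. With the correction for GC content and length, 7 were called with RA at 12 h, 1 with RA at 24 h, 6 at 24 h without RA and 4 for the change of the RA effect. With it mt-Co1 differed by -0.26, adjusted p = 0.0386, mt-Co2 by -0.08, adjusted p = 0.701 and mt-Co3 by -0.07, adjusted p = 0.811 with RA at 24 h.

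Not all mitochondrial genes followed this course. mt-Nd3, a small core subunit of complex I, stood at 296, 361 and 381 TPM in ESC_0h and 462, 509 and 518 TPM in noRA_12h, higher in each library (0.53 ± 0.1 (SE), adjusted p = 0.000851, and 1.22 with the GC content and length correction). mt-Nd1 stood at 3459, 2732 and 2827 TPM in noRA_12h and 2708, 2284 and 2579 TPM in RA_12h (-0.25, adjusted p = 0.216). mt-Atp6, the channel subunit of ATP synthase, stood at 2923, 1696 and 2695 and 2942, 2459.9 and 3058 TPM (0.24, adjusted p = 0.461). mt-Atp8 and mt-Atp6, mt-Atp6 and mt-Co3, and mt-Nd4l and mt-Nd4 overlap at their ends on the same strand. With RA at 24 h the mitochondrial median was -0.16 while the nuclear median was 0.16, and this difference between the 2 genomes was not tested.

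**Figure D4:**
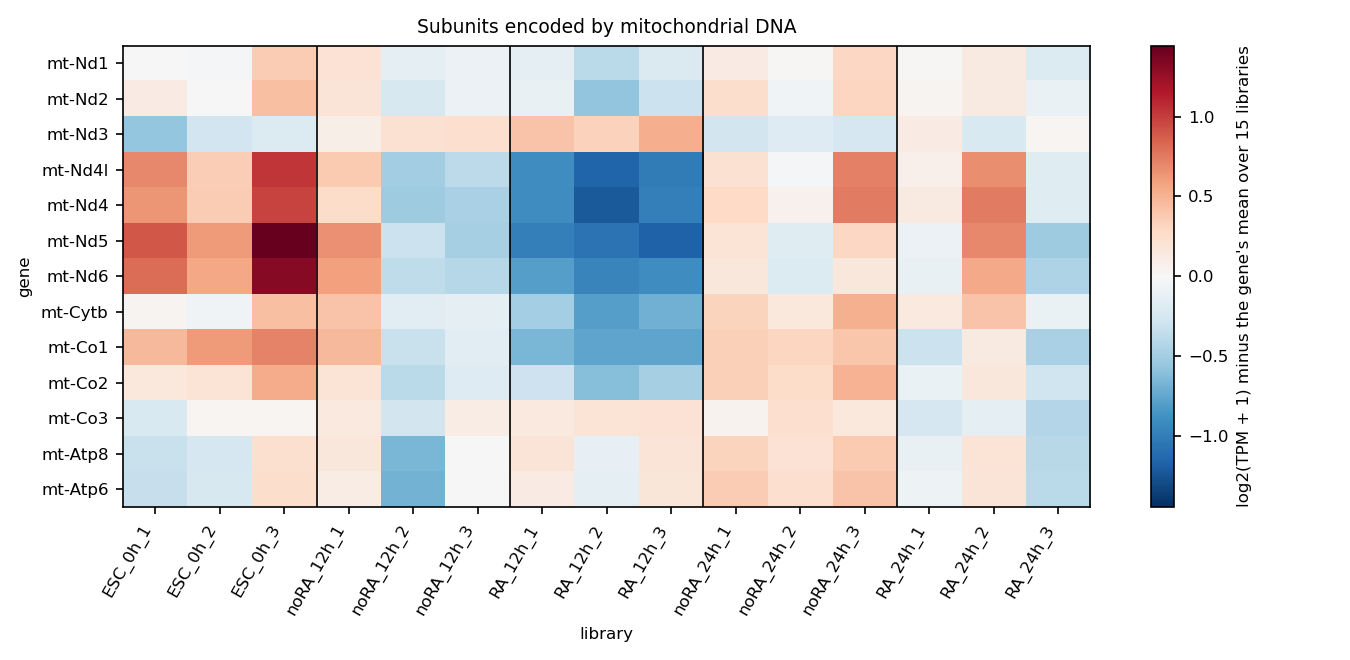
Rows are the 13 subunits encoded by mitochondrial DNA and columns the 15 time course libraries in order of group. Colour gives log2(TPM + 1) minus the mean of the gene over the 15 libraries, blue for lower and red for higher, so the RA_12h columns are blue for mt-Nd4, mt-Nd4l, mt-Nd5, mt-Nd6, mt-Cytb, mt-Co1 and mt-Co2 and red for mt-Nd3.

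In the Cyp26a1 set, with 24 h of RA in both genotypes, 82 of 84 nuclear subunits stayed without a call. By limma, 1 of 84 was lower (Ndufa4l2) and 1 higher (Ndufa5) in the knockout. Over all 12848 genes tested, 6.65% were called lower and 3.34% higher, 9.99% in either direction. The median difference was 0.01 for the subunits and -0.05 for all genes. At an unadjusted p below 0.05, 8 subunits were higher and 5 were lower, beside 3278 of all 12848 genes in either direction. Ndufa4l2 stood at 18.1, 16.8 and 12.8 TPM in the wild type and 6.86, 7.82 and 6.21 TPM in the knockout, lower in each library, a separation seen in 32.6% of all genes tested (-1.08 ± 0.15 (SE), adjusted p = 0.00938). The call was lost without wild type library 1 (adjusted p = 0.0519) or 2 (0.0563). Its overlapping neighbour Shmt2 stood at 224, 210.5 and 209.7 and 195, 193 and 173 TPM (-0.20, adjusted p = 0.105). Ndufa5, an accessory subunit of the peripheral arm of complex I, stood at 225, 223 and 219 and 269, 257 and 255 TPM (0.23 ± 0.045 (SE), adjusted p = 0.0267). Same-numbered libraries of this set deviated together, and with the replicate number as a block the Ndufa5 call was lost (adjusted p = 0.056) and that of Ndufa4l2 was kept (0.0037). The Ndufa5 call was also lost in the 5 fits that left out any library but Cyp26a1_KO library 3 (0.0747 to 0.132).

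Of the 6 libraries, leaving out Cyp26a1_KO library 3 changed these counts most. Without it, 17 subunits were called higher and 4 lower, with 7.78% of all genes called higher and 16.8% lower. The median was then 0.08 for the subunits and -0.10 for all genes. The 17 included Cox4i2, Cox6b2, Cox6c, Cox7c, Ndufa4 and Ndufb9, and the 4 were Atp5c1, Ndufa4l2, Ndufab1 and Sdha. Cox6c, a small subunit of complex IV, stood at 786, 825 and 745 TPM in the wild type and 938, 899 and 833 TPM in the knockout. Cox4i2 stood at 3.36, 3.65 and 4.76 and 8.01, 5.47 and 6.39 TPM, higher in each knockout library, but did not pass with all 6 libraries (0.63, adjusted p = 0.0672). In these tables Cox4i2 overlaps Bcl2l1 on the opposite strand. Sdha stood at 251, 237 and 244 and 218, 216 and 216 TPM, lower in each knockout library (-0.17, adjusted p = 0.0601). Median-of-ratios scaling gave 2 higher and 1 lower among the subunits, and 524 higher and 558 lower among all genes in place of 429 and 855. The correction for GC content and length gave 3 higher and 1 lower, with 952 higher and 886 lower among all genes.

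A few members in this set had single libraries far from the rest. Ndufs5, an accessory subunit of complex I, stood at 16.2, 63.7 and 67.6 TPM in the wild type and 57.2, 68.8 and 5.995 TPM in the knockout, with wild type library 1 and knockout library 3 low. Atp5e, the epsilon subunit of the ATP synthase stalk, stood at 196, 207 and 186 and 446, 186 and 193 TPM, with knockout library 1 high. Neither passed the test (-0.48, adjusted p = 0.848 and 0.36, adjusted p = 0.581). Primitive endoderm markers summed to 290 to 311 TPM in the wild type and 122 to 128 TPM in the knockout, with 6 of 6 lower, and 5 of 6 ESC markers were higher. Trophoblast markers summed to 133 to 141 and 99.1 to 111 TPM, with 1 of 4 tested lower. The part of these marker differences in the subunit values was not tested.

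**Figure D5:**
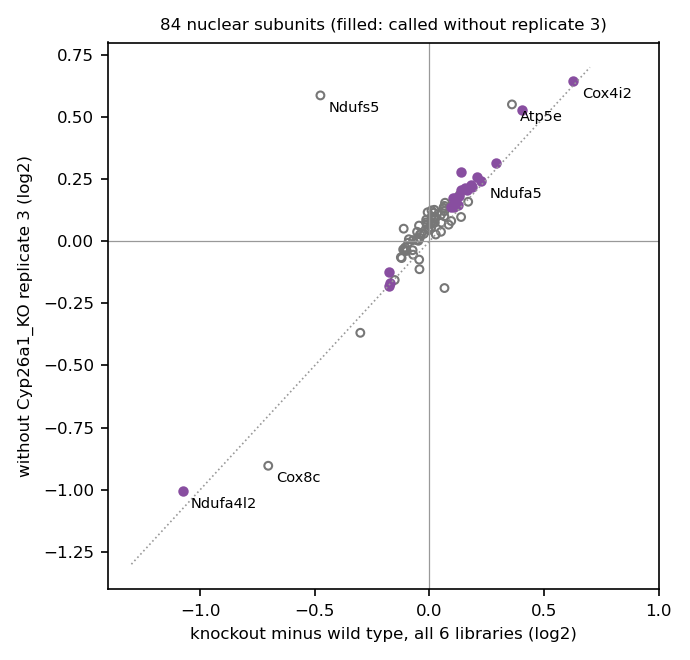
Each point is 1 of 84 nuclear subunits, with the knockout minus wild type difference of log2(TPM + 1) over all 6 libraries on the x axis and without Cyp26a1_KO library 3 on the y axis. Filled points were called without that library, and most subunits lie above the dotted line of equal values.

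Genes that serve the chain without being subunits were counted from lists written with earlier results known, and each count is to be read against the share of all genes called. Higher and lower, these shares were 22% and 20.4% at 12 h without RA, 25.4% and 26.5% at 24 h without RA, 10.2% and 7.19% with RA at 12 h, 22.8% and 12.5% with RA at 24 h, and 3.34% and 6.65% in the knockout. Of 48 assembly factors tested, 9 rose and 11 fell at 12 h without RA and 9 rose and 11 fell at 24 h. With RA, 5 rose at 12 h, and at 24 h 19 rose and 2 fell, with a median of 0.20. Ndufaf5, an assembly factor that hydroxylates a core subunit of complex I, stood at 53.8, 65.5 and 54.7 TPM in ESC_0h, 22.5, 23.6 and 26.2 in noRA_12h and 18.2, 22.5 and 22.0 in noRA_24h (-1.23, adjusted p = 3.28e-07 and -1.43, adjusted p = 5.47e-08). Taco1, a translational activator of mt-Co1, stood at 29.9, 29.6 and 27.3 TPM in noRA_24h and 44.3, 39.2 and 45.0 TPM in RA_24h (0.55 ± 0.078 (SE), adjusted p = 0.000112, and 0.34 with the GC content and length correction). In the knockout none of the 48 was called by limma, and 5 had an unadjusted p below 0.05, beside 3278 of all 12848 genes.

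Of 24 genes for expression of mitochondrial DNA, 6 rose and 3 fell at 24 h without RA (25.4% and 26.5% of all genes), and 2 rose and 4 fell with RA at 24 h (22.8% and 12.5%). Tfam, the packaging and transcription factor of mitochondrial DNA, stood at 24.8, 36.8 and 33.2 TPM in ESC_0h and 49.0, 52.0 and 52.9 TPM in noRA_24h (0.70 ± 0.18 (SE), adjusted p = 0.00612, and 0.44 with the GC content and length correction). Tefm, the elongation factor of mitochondrial transcription, stood at 37.3, 42.8 and 36.5 TPM in noRA_24h and 18.7, 26.3 and 12.3 TPM in RA_24h (-1.05 ± 0.25 (SE), adjusted p = 0.00581). The list's median was 0.27 at 24 h without RA and -0.28 with RA at 24 h, beside 0.03 and 0.02 for all genes. Among the RA_24h libraries, library 2 was the highest for Tefm and stood with noRA_24h in GC balance. The part of that balance in the list's medians was not tested. In the knockout 1 of 24 was called, Fastkd3 (0.34, adjusted p = 0.0307). That call was lost with the replicate number as a block (adjusted p = 0.0706) and in the 5 fits that left out any library but Cyp26a1_KO library 3 (at most adjusted p = 0.138).

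Among 13 tested regulators of mitochondrial genes, 2 rose and 4 fell at 24 h without RA, beside 25.4% and 26.5% of all genes. Myc, a growth regulator, rose from 5.64, 4.10 and 4.45 TPM in ESC_0h to 59.7, 57.3 and 49.5 TPM (3.31, adjusted p = 3.06e-11). Esrrb, an orphan receptor of the naive state that can bind respiratory genes, fell from 670.3, 550.0 and 585 to 123, 136 and 115 TPM (-2.26, adjusted p = 8.97e-10), and Ppargc1b, a coactivator of respiratory genes, also fell (-1.03, adjusted p = 5.45e-06). Esrra, the related receptor, stood at 19.9, 21.9 and 20.1 TPM in noRA_24h and 37.4, 34.0 and 41.5 TPM in RA_24h and rose with RA at both times (0.72, adjusted p = 6.71e-05 and 0.83, adjusted p = 8.36e-06). In the knockout Esrrb was the 1 regulator called of 12 tested, at 70.9, 70.5 and 69.4 TPM in the wild type and 117, 123 and 110.2 TPM in the knockout (0.72, adjusted p = 0.00154).

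For the 24 genes of the tricarboxylic acid cycle and electron entry, 8 rose and 5 fell at 24 h without RA (25.4% and 26.5% of all genes), and 9 rose and 2 fell with RA at 24 h (22.8% and 12.5%). Idh2, the NADP-dependent isocitrate dehydrogenase, stood at 320.4, 305 and 301 TPM in ESC_0h and 179.6, 193 and 181 TPM in noRA_24h (-0.74 ± 0.07 (SE), adjusted p = 1.36e-06). Gpd2, which passes electrons from glycerol 3-phosphate to ubiquinone, went the other way, from 23.6, 24.1 and 25.5 to 84.7, 88.9 and 81.2 TPM (1.76 ± 0.14 (SE), adjusted p = 3.13e-07), and stood at 28.3, 35.9 and 23.6 TPM in RA_24h (-1.52, adjusted p = 2.79e-06). Idh2 and Dlst were the 2 genes of this list called in the knockout, both lower (-0.39, adjusted p = 0.00923 and -0.30, adjusted p = 0.0166). The Idh2 call was lost without any 1 wild type library (at most adjusted p = 0.0637). The Dlst call was kept only without Cyp26a1_KO library 3 when 1 library was left out (otherwise at most adjusted p = 0.0926) and was lost under median-of-ratios scaling (adjusted p = 0.0564).

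Of 15 carriers and supercomplex or cristae factors, 3 rose and 5 fell at 24 h without RA (25.4% and 26.5% of all genes), and 4 rose and 3 fell with RA at 24 h (22.8% and 12.5%). The ADP/ATP carriers differed by gene. Slc25a31, the germline carrier, stood at 0.70, 0.98 and 0.63 TPM in ESC_0h and 8.68, 9.67 and 9.81 TPM in noRA_24h (2.56, adjusted p = 3.12e-09). Slc25a4, the heart and muscle carrier, stood at 197, 219 and 202 TPM in ESC_0h, 129.5, 137 and 135 TPM in noRA_24h and 242, 205 and 232 TPM in RA_24h, falling without RA (-0.62, adjusted p = 3.1e-05) and higher with it (0.75, adjusted p = 1.14e-05). Cox7a2l, a member that also joins complexes III and IV into supercomplexes, fell at 24 h without RA (-0.50, adjusted p = 0.000124) and stood at 154, 145 and 176 TPM in RA_24h (0.06, adjusted p = 0.559). Of the uncoupling proteins Ucp2 alone was tested, and it was higher with RA at 12 h (0.40, adjusted p = 0.00168). The marker sums given above for these comparisons apply to these gene groups too, and their part was not tested.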

How the data were processed

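Polyadenylated RNA of 21 libraries was used as gene abundance tables, 1 per library. The build mm10 and the tools HISAT2 and StringTie are named, per the submitters' processing notes; their versions, settings and strand handling were not given in the sources read. The TPM and FPKM values and the coverage signal are those the authors deposited, per the file headers. Rows sharing a gene identifier were summed. A gene entered the test when 3 or more libraries of its set held 1 TPM or above. The test was limma 3.58.1 (R 4.3.3) with its trend option, run on log2(TPM + 1), with group as the only term, all 15 time course libraries in 1 model and the 6 of the Cyp26a1 set in another. A call needs an adjusted p (Benjamini-Hochberg, all tested genes) under 0.05, and the pseudocount of 1 shrinks differences of low genes. Levels were never compared between the sets.

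The members and all lists were chosen with earlier results of these data known. The text names, per comparison, up to 6 called nuclear subunits in each direction with the largest non-overlapping difference, the mitochondrial subunits, complex II, the isoform families and up to 4 genes per related list. Uqcrc1, Ndufb4, Ndufb10, Cox5b, Ndufa11, Cox6c, Ndufs5, Atp5e, Atp5b, Atp5a1, Ndufs1, Shmt2 and Cbarp were named after their values were seen. Ndufa4 and Ndufa4l2 were counted with complex IV. Depth was estimated from the ratio of coverage to FPKM. GC content and length came from the longest transcript of each gene in GENCODE M21, and the correction fitted a natural spline (4 degrees of freedom) of each within each library. Nothing in the labels says that replicates were separate cultures, so p-values measure the spread between libraries, which may be technical. Same-numbered libraries of the Cyp26a1 set deviated together (correlation of deviations 0.32, 0.19 and 0.54), those of the time course did not in every pair. Libraries of unlike number were not compared in this way, so pairing by number is not settled in either set. The fit was tested on simulated data. Alternatives were another pseudocount (0.1), other filters (none, or a mean TPM of 5 or above), FPKM, scaling by the median of ratios, the GC content and length correction, the replicate block and leaving out each library.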

Additional observations from a re-analysis of the deposited data

Results flagged for a closer look

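mt-Co3, a core subunit of complex IV encoded by mitochondrial DNA, had an RA effect that differed between the 2 times. It stood at 4269, 3212 and 4182 TPM in noRA_12h and 4259, 4429 and 4464 TPM in RA_12h, and at 4004, 4581 and 4309 TPM in noRA_24h and 3259, 3541 and 2883 TPM in RA_24h. The RA difference at 24 h minus that at 12 h was -0.60 ± 0.16 (SE), adjusted p = 0.0363 (limma, Benjamini-Hochberg over all genes), with 6.85% of all genes called in either direction in that contrast. The call was lost in 8 of the 12 fits that left out 1 library (adjusted p = 0.0539 to 0.0901) and kept without noRA_12h library 1, noRA_12h library 3, noRA_24h library 1 or RA_24h library 2. It was also lost with the GC content and length correction (-0.53, adjusted p = 0.277), with a replicate block (0.0746) and with no filter on low values (0.0644). mt-Co3 overlaps at its end with mt-Atp6, which did not pass (-0.67, adjusted p = 0.212).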

How the results depend on the processing

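Counts of called subunits depended on library and scaling. Median-of-ratios scaling moved the nuclear subunits lower at 12 h without RA to 12, those higher with RA at 24 h to 11, and those higher in the knockout to 2. FPKM values gave 19 lower at 12 h without RA, 4 higher and 0 lower with RA at 12 h, and 0 higher in the knockout. The correction for GC content and length gave 1 higher at 24 h without RA, 9 lower with RA at 12 h, 14 higher and 6 lower with RA at 24 h, 1 higher for the change of the RA effect, and 3 higher in the knockout. For the mitochondrial subunits it gave 6 called at 24 h without RA, 7 with RA at 12 h, 1 with RA at 24 h and 4 for the change of the RA effect, not including mt-Co3. With no filter on low values, 1 mitochondrial subunit was called at 24 h without RA, 2 with RA at 12 h and 0 for the change of the RA effect, and nuclear counts were 1 higher with RA at 12 h and 1 lower with RA at 24 h. The last count was also 1 with a pseudocount of 0.1 and with a mean of at least 5 TPM. The cause of these shifts was not tested.

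Same-numbered libraries of the time course did not deviate together in every pair (correlations from -0.53 to 0.28). For noRA_24h against ESC_0h the correlations were 0.04, 0.13 and 0.28. With a replicate block, 1 mitochondrial subunit was called at 24 h without RA, 2 with RA at 12 h and 0 for the change of the RA effect, 1 nuclear subunit was lower with RA at 24 h, and 0 were higher in the knockout. The other counts of called subunits stayed within 1.5 times under the block.

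Leaving out 1 library gave, for higher and lower nuclear subunits, 1 to 5 and 18 to 37 at 12 h without RA, 2 to 5 and 41 to 49 at 24 h without RA, 1 to 6 and 0 to 1 with RA at 12 h, 13 to 51 and 1 to 4 with RA at 24 h, 0 to 7 and 0 to 0 for the change of the RA effect, and 0 to 17 and 0 to 4 in the knockout. Called mitochondrial subunits were 1 to 7, 0 to 2, 1 to 6, 1 to 6 and 0 to 1 in the first 5 of these.

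After the correction for GC content and length 3 named differences changed sign: Cox6a1 with RA at 24 h (-0.041), Cox7c at 24 h without RA (-0.30) and Ndufa1 at 24 h without RA (-0.078). No other alternative that was run reversed a called difference of a gene chosen by the rule for named genes. Where groups did not overlap, leaving out a library could not reverse the difference, and the filters and the replicate block leave it unchanged. The lack of reversals in those fits is therefore no evidence that these differences are stable. Loss of a call was possible: fits that left out a library lost 109 calls of these genes and kept 299. Median-of-ratios scaling lost 14 and kept 53. Depth is known only as aligned bases, so members under about 5 TPM (Cox7b2, Cox8c and Cox6a2) carry the least certain values.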
